A study of Mus musculus with 5 samples.

Results

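The 34 genes described here present peptides to T cells or give T cells the second signal that accompanies a presented peptide. They were chosen by name out of 51912 genes in the deposited tables, from knowledge of the pathway. Earlier results of these data were known at that choice, so comparisons with all genes only describe the list. The list holds 19 genes of the class I pathway, 9 of the class II pathway and 6 co-stimulatory or co-inhibitory ligands and receptors. Bulk RNA sequencing was done on 5 male mice aged 7 months, 1 library per mouse. In 3 mice the growth hormone receptor gene had been deleted (SV40 C3(1) T-antigen+/0 with Ghr flox/flox and ROSA26Cre-ERT2+/0). The other 2 were tamoxifen controls (SV40 C3(1) T-antigen+/0 with Ghr flox/flox), whose labels list no Cre. All 5 mice carried the floxed receptor gene and the T-antigen transgene, which the rat C3(1) prostatein promoter drives in prostate epithelium. All 5 received tamoxifen at 250 mg/kg daily for 5 days, and tissue labelled as dorsolateral prostate was collected 1 month later. The ROSA26 locus is active in most cell types, so the design does not restrict the deletion to the epithelium. Which cells lost the receptor was not measured. Presence of Cre-ERT2 and loss of the receptor cannot be told apart in this design.

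The libraries differed in ways that the groups do not explain. Total counts lay between 13812454 and 47656212. Genes of seminal vesicle secretion took 27.4%, 28.7% and 1.43% of the counts in Ghr deletion libraries 1, 2 and 3, against 35.3% and 2.77% in tamoxifen controls 1 and 2. Their 95% Wilson intervals are narrow, 35.2% to 35.3% for control 1, and cover counting error only. Like shares do not mean a like mix of these genes. Svs2 had 5465583, 8625770 and 94420 counts in the deletion libraries, against 4522293 and 45717 in the controls. Svs1 had 177, 2 and 519 counts, against 1828687 and 3527. The prostate secretory gene Pbsn had 8 counts or fewer in 4 libraries and 411 in control 1, so the defining prostate markers were nearly absent from tissue labelled as prostate. The list of 4 prostate genes summed to 0.376 to 1.05 CPM in the deletion libraries and to 34.1 and 0.194 CPM in the controls. The urothelial gene Upk3a had 1046 counts in deletion 3 and 0 in the others, and the 5 urothelial genes summed to 47.0, 68.4 and 164 CPM, against 80.0 and 25.2 CPM. In TMM-scaled CPM, explained below, 5 of the 8 seminal vesicle genes were lower in every deletion library than in either control. The share over all tested genes was 10.2%. Ghr itself had 232, 668 and 652 counts in the deletion libraries, against 336 and 646 in the controls, with a log2 fold change of -0.73 ± 0.515 (SE) and an edgeR quasi-likelihood adjusted p of 0.995. A count over the whole gene does not isolate the floxed exon, so it does not check the deletion, and the groups below go by their labels. Deletion 3 correlated better with control 2 (r = 0.955 over log2 values of all tested genes) than with either of the other deletion libraries (0.932 and 0.908).

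Class I molecules are made by nearly all cells. They hold peptides that the proteasome cuts from proteins inside the cell and that the TAP transporter brings into the endoplasmic reticulum, and CD8+ T cells read them. Class II molecules are made mainly by dendritic cells, macrophages and B cells, hold peptides from proteins taken up from outside, and are read by CD4+ T cells. A T cell that meets its peptide also needs a signal from ligands such as CD80, CD86 or ICOSL, while PD-L1 and PD-L2 dampen it. In prostate tissue, class I comes from epithelium and stroma alike, whereas class II marks mostly resident immune cells.

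Promoters of 5 members are shown because class I and class II genes are known to share short control elements just upstream of their starts. RefSeq sequences were matched for 27 of the 34 members. The windows are the 250 bases before the RefSeq start in GRCm38.p6, read 5′ to 3′ on the strand of the gene. Capitals mark matches, on either strand, to ATTGG (the reverse of the CCAAT box, part of the Y element of MHC promoters). They also mark the core of the interferon-stimulated response element, TTCNNNGAA (a STAT site) and an NF-kappaB-type element. For the NF-kappaB type a single fixed sequence was searched, the first capitals in the H2-Q7 window. Other forms of that site were not searched. No match overlaps another in these 5 windows.
H2-Aa, class II alpha chain, chr17:34287824-34288073, minus strand: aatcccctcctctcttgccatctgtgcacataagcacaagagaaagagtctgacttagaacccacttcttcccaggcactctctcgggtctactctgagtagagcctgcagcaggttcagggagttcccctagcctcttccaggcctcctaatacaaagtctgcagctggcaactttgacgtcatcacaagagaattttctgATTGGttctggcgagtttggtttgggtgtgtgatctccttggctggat
B2m, class I light chain, chr2:122147437-122147686, plus strand: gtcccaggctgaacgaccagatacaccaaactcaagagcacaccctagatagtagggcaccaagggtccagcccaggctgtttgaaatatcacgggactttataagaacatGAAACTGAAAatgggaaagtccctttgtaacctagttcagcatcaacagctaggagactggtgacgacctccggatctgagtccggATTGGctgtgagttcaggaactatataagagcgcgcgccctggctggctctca
Tap1, peptide transporter, chr17:34187306-34187555, plus strand: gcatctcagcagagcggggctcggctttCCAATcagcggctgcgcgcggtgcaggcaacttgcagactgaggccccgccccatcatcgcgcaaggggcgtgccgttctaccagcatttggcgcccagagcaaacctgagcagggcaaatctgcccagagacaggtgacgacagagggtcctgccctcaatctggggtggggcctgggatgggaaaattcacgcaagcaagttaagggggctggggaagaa
H2-Q7, class Ib heavy chain, chr17:35438905-35439154, plus strand: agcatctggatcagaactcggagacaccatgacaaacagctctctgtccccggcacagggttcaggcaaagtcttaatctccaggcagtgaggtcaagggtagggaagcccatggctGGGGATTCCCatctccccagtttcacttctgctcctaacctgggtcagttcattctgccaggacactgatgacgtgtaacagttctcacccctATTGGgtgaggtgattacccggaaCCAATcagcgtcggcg
Icosl, co-stimulatory ligand, chr10:78069118-78069367, plus strand: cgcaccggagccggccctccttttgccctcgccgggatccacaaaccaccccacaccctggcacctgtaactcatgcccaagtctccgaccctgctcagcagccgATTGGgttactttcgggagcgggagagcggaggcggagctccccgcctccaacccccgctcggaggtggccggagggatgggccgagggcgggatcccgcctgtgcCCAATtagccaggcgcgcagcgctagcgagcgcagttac
The first 3 were named by rule, and H2-Q7 and Icosl were added after their values were seen. H2-Aa and B2m each held the first motif close to the start, and B2m also held the interferon-type element farther upstream. H2-Q7 held the NF-kappaB-type element upstream of the first motif. The first motif was found in 20 of the 30 windows of matched members, against 33.8% of 32851 RefSeq windows of the same length. The interferon-type element was in 3 member windows, those of B2m, H2-T22 and H2-T23, against 2.98% of all windows. The NF-kappaB-type element was in 5 member windows, which belong to 4 genes, H2-D1, H2-K1, H2-Q6 and H2-Q7, against 0.0852% of all windows. Both values count the fixed sequence only. They do not show how common NF-kappaB sites are, or which members lack one. TTCNNNGAA was in 2, those of H2-M3 and Psmb8, against 7.02%. These matches describe letters in the windows and show no binding.

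Most of the 34 genes had lower values in the Ghr deletion libraries than in the tamoxifen controls, and the class II genes lay lowest. Of the 31 members with enough counts to test, 29 had a fold change below 0, against 49.6% of all 18615 genes tested. The exceptions were Icosl and H2-D1. The median log2 fold change, deletion over control, was -0.62 over the 19 class I genes, -1.82 over the 8 tested class II genes and -0.65 over the 4 tested co-stimulatory and co-inhibitory genes, against 0.00 over all genes. No member passed edgeR's quasi-likelihood test at an adjusted p under 0.05, and neither did any other gene (0% of those tested), so none of these differences is called. Without control 2 the class II median was -1.07. Without control 1 and deletion 3, edgeR called 85 genes and 4 members, H2-Aa, H2-Ab1, H2-Eb1 and Cd74, all lower. That leaves 2 deletion mice with seminal vesicle shares of 27.4% and 28.7%, against 1 control with 2.77%, so group and tissue makeup cannot be told apart in these 4 calls. At an unadjusted p under 0.05, 7 members were lower and 1 was higher, against 3.23% and 1.69% of all genes. DESeq2 called 3 members at an adjusted p under 0.05, against 0.899% of the genes for which it gave one: H2-Q7 (adjusted p = 0.0171) and H2-Aa (0.0232) were lower and Icosl (0.0232) was higher. limma-voom called none of the members and 0% of all genes, and 4.92% of all genes (915) had an unadjusted p under 0.05 in edgeR in either direction.

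In counts scaled by TMM, 17 of the 31 tested members were lower in every deletion library than in either control, against 10.2% of all genes, and 1 was higher, against 9.43%. That count depends on the scaling. TMM sets library sizes so that most genes do not differ, and it gave control 1 a factor of 0.491, which raises its values, and deletion 3 and control 2 factors of 1.61 and 1.5, which lower theirs. With counts divided by library totals alone, 2 members were lower without overlap, H2-Q7 and H2-Eb1, against 2.69% of all genes, and 1 was higher, against 5.18%. In the deposited TPM, 0 were lower, against 0.688%, and 1 was higher, against 4.99%. Control 1 had the lowest TPM of the 5 libraries for 23 of the 31 tested members and for 84.4% of all tested genes. Library totals also moved the median of all genes to a log2 fold change of 0.23. Relative to that, the class medians were -0.74 for class I, -1.94 for class II and -0.53 for the co-stimulatory genes. Icosl was the 1 member higher without overlap on each of the 3 scales. Values below are TMM-scaled CPM, in which counts are divided by the effective size of the library, unless another unit is named.

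**Figure D1:**
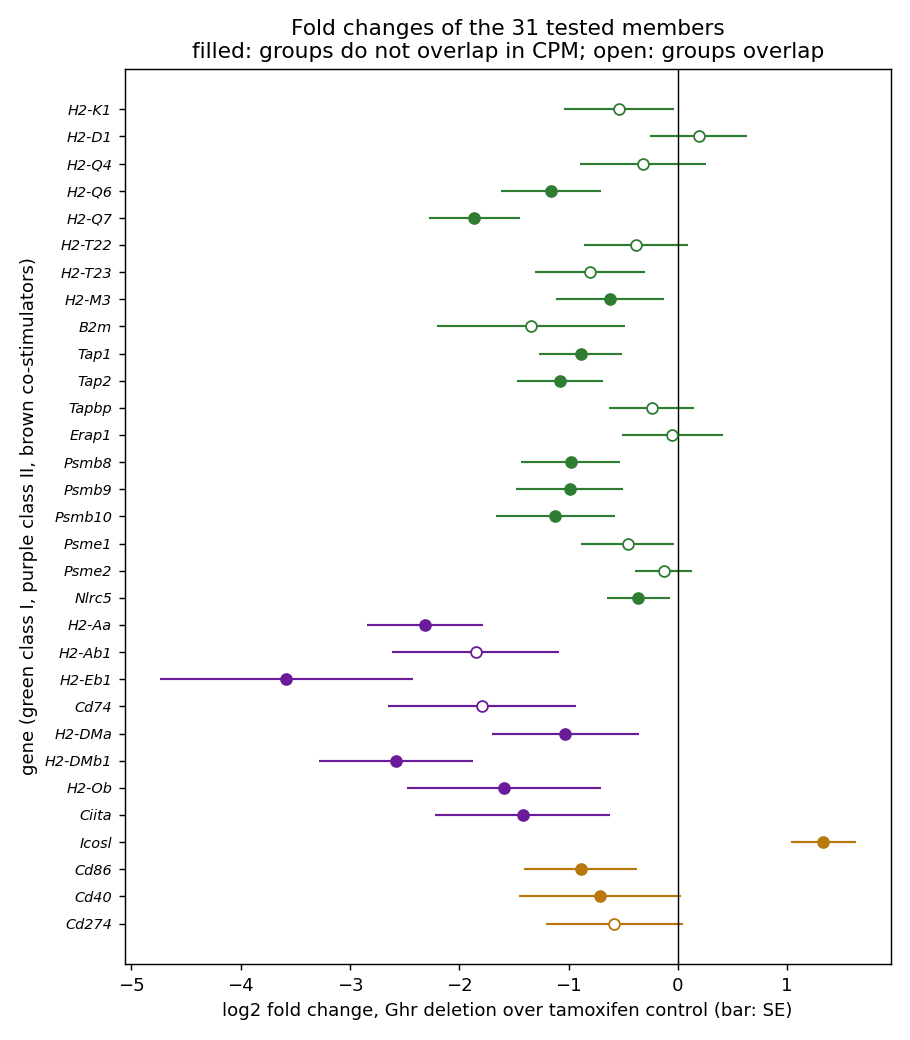
Log2 fold change (x axis, Ghr deletion over tamoxifen control, bar = SE) of the 31 tested members (y axis), class I in green, class II in purple and co-stimulatory or co-inhibitory genes in brown; filled points mark genes whose 3 deletion and 2 control libraries do not overlap in CPM. Points lie left of 0 for 29 genes, H2-Eb1 lies farthest left at -3.58, and Icosl lies farthest right at 1.33.

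The 4 class II chains had a median log2 fold change of -2.08, the lowest of the groups of genes by role. H2-Aa (17:34282744-34287823, GRCm38, minus strand), the alpha chain of the I-A molecule, had 15.1, 14.6 and 18.0 CPM in the deletion libraries, against 33.2 and 124 CPM in the controls. The 3 deletion values lie close together, while control 2 stands far above control 1. Its log2 fold change, at -2.31 ± 0.529 (SE), had a 95% interval of -3.57 to -1.04, with an edgeR adjusted p of 0.985 and an unadjusted p of 0.00375. Leaving out control 1 gave -2.97 and leaving out control 2 gave -1.07, so control 2 sets most of the size. In TPM the gene stood at 8.83, 9.80 and 43.6 in the deletion libraries and at 5.84 and 136 in the controls, with control 1 the lowest of all 5.

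H2-Ab1 (17:34257689-34269419), the beta chain that pairs with H2-Aa, had 9.85, 7.24 and 31.9 CPM in the deletion libraries, against 27.2 and 90.9 CPM in the controls. Deletion 3 lay above control 1, so the groups overlapped. The log2 fold change was -1.85 ± 0.760 (SE), and it was -0.74 without control 2. Cd74, the invariant chain that escorts new class II molecules and blocks their groove, had 46.2, 26.9 and 153 CPM in the deletion libraries, against 101 and 421 CPM in the controls. Its groups overlapped in the same way, with a log2 fold change of -1.79 ± 0.858 (SE) that was -0.42 without control 2.

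H2-Eb1 (17:34305867-34316674, plus strand), the beta chain of the second class II molecule, I-E, had 157, 282 and 28 counts in the deletion libraries, against 390 and 2098 counts in the controls. In CPM these are 5.50, 8.83 and 0.520, against 16.7 and 102. Deletion 3 was the lowest library for H2-Eb1 but the highest of its group for H2-Aa, H2-Ab1 and Cd74. The TPM ratio of H2-Eb1 to H2-Aa within a library, chosen after the values were seen and not tested, was 0.343, 0.571 and 0.0227 in the deletion libraries, against 0.467 and 0.771 in the controls. Deletion 3 thus stood far below the other 4 in a measure that no scaling between libraries can move. The log2 fold change of H2-Eb1 was -3.58 ± 1.16 (SE; edgeR adjusted p = 0.991), and -1.76 without control 2. The labels name no strain, MHC alleles differ between mouse strains, and GRCm38 is the C57BL/6J genome. How many reads of another allele were counted was not tested. The alpha chain of I-E is a pseudogene in that genome, and it had 3, 0 and 1 counts in the deletion libraries, against 10 and 0 in the controls.

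Of the 4 genes of class II peptide exchange, the 3 tested were lower without overlap in TMM-scaled CPM, against 10.2% of all tested genes. With library totals and in TPM, the groups overlapped for each of them. H2-DMb1, a chain of the DM exchange factor, had 1.19, 1.63 and 1.82 CPM in the deletion libraries, against 3.04 and 15.5 CPM in the controls. Its log2 fold change was -2.58 ± 0.706 (SE; edgeR adjusted p = 0.991), and -0.97 without control 2. Of the 50-base words in its transcripts, 27.2% also occur in H2-DMb2, so its counts may be split between the genes. H2-DMa, the partner chain, had 1.23, 5.32 and 5.03 CPM, against 5.90 and 9.88 CPM, with deletion 2 just under control 1. The log2 fold change of -1.03 ± 0.671 (SE) was -0.59 without deletion 1. H2-Ob, a chain of the DO molecule that restrains DM, was near the floor, with 11, 2 and 22 counts in the deletion libraries and 25 and 14 in the controls. H2-Oa, its partner, had too few counts to test, with 5, 3 and 0 in the deletion libraries and 17 and 1 in the controls. Ciita (16:10480059-10528418), the master transcriptional activator of class II genes, had 1.44, 0.282 and 2.12 CPM in the deletion libraries, against 3.51 and 3.39 CPM in the controls. Its groups did not overlap on the TMM scale but did with library totals and in TPM. Its log2 fold change was -1.42 ± 0.800 (SE; edgeR adjusted p = 0.995).

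**Figure D2:**
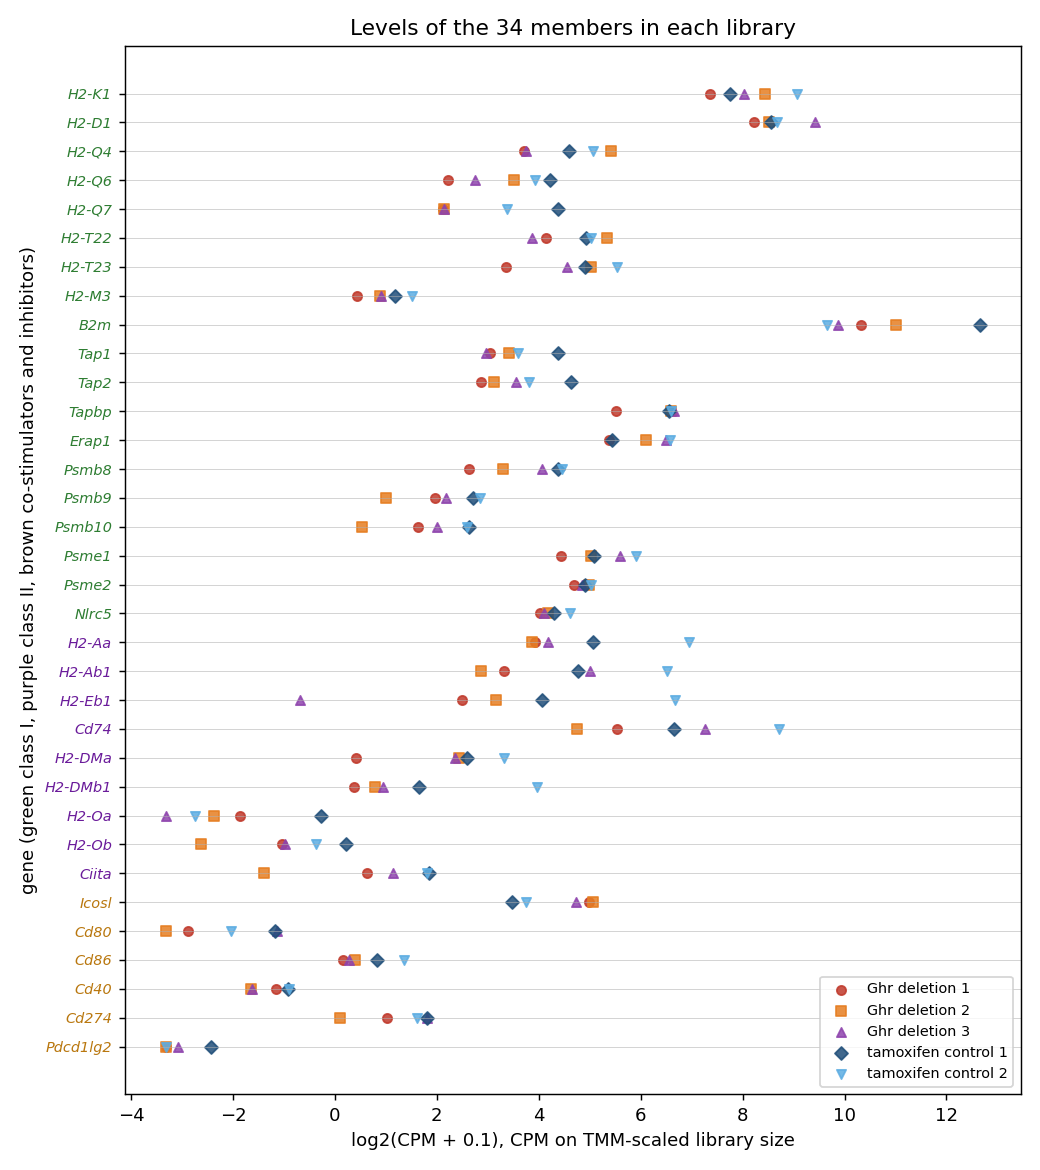
Level of each of the 34 members (y axis) in each library, as log2(CPM + 0.1) on the TMM-scaled library size (x axis). Red, orange and purple symbols are the 3 Ghr deletion libraries and blue symbols the 2 tamoxifen controls; the class II chains H2-Aa, H2-Ab1, H2-Eb1 and Cd74 are highest in control 2, and Icosl has both blue symbols to the left.

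Markers of leukocytes, macrophages, dendritic cells and T cells also had lower TMM-scaled values in the deletion libraries, as did those of endothelium and fibroblasts. For the counts below, 49.6% of all tested genes had a fold change below 0 and 10.2% were lower without overlap. Ptprc (CD45, on all leukocytes) had 11.2, 4.89 and 14.6 CPM in the deletion libraries, against 24 and 30.1 CPM in the controls, a log2 fold change of -1.40 (edgeR adjusted p = 0.991). The leukocyte list of 5 genes, left without Cd52, which epithelium of the male tract also makes, summed to 10.3 to 23.9 CPM in the deletion libraries and to 38.2 and 46.4 CPM in the controls. With Cd52 it summed to 37.0 to 542 CPM and to 147 and 1249 CPM. All 9 macrophage markers had fold changes below 0, 8 of them without overlap, and their sum was 51.0 to 56.9 CPM in the deletion libraries, against 77.1 and 116 CPM in the controls. Of 8 dendritic cell markers, 5 were tested and all 5 were lower, with sums of 7.67 to 14.2 CPM, against 17.6 and 18.0 CPM. Of 8 T cell markers, 7 were tested and 7 were lower, with sums of 1.41 to 3.25 CPM, against 6.63 and 13.1 CPM. The 7 B cell markers summed to 76.1, 190 and 88.4 CPM in the deletion libraries and to 16.7 and 165 CPM in the controls. Nearly all of that was Cr2, the only one tested, with a log2 fold change of 0.39 and overlapping groups. The other 6 summed to 0.219 to 0.390 CPM, against 1.03 and 0.726 CPM, and the defining marker Cd79a had 0 counts in the deletion libraries and 1 and 0 in the controls. Endothelial markers were lower, 6 of 6 with 5 free of overlap, and summed to 34 to 47.3 CPM, against 74.4 and 98.7 CPM. Fibroblast markers were lower, 6 of 6 with 3 free of overlap, where the median log2 fold change was -1.64, with sums of 78.8 to 247 CPM, against 322 and 518 CPM. The epithelial list summed to 923 to 2073 CPM in the deletion libraries and to 949 and 1458 CPM in the controls. Of its 5 genes, 1 was lower and 4 were higher, with a median log2 fold change of 0.36. Of the higher ones, 1 was free of overlap, against 9.43% of all tested genes, and 0 were with library totals or in TPM. These marker differences depend on the scaling as well. With library totals, 0 of the 9 macrophage markers were lower without overlap. In TPM their sum was 20.2, 24 and 78.0 in the deletion libraries, against 9.06 and 84.1 in the controls, so control 1 was lowest. No gene of the leukocyte, macrophage, dendritic cell, T cell, endothelial or fibroblast lists was lower without overlap in TPM. The part of these cells in the class II values was not tested, and the ratios that follow only describe it. In bulk tissue, fewer cells of a type and less RNA per cell cannot be told apart.

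Set against Ptprc within each library, H2-Aa and Cd74 did not separate the groups. The TPM ratio of H2-Aa to Ptprc was 5.73, 12.7 and 6.04 in the deletion libraries, against 5.31 and 17.4 in the controls. That of Cd74 to Ptprc was 15.3, 20.8 and 37.9, against 13.9 and 52.5. Control 1 was the lowest of the 5 libraries in both ratios and control 2 the highest. Set against Csf1r, the macrophage growth factor receptor, H2-Aa was 7.18, 8.60 and 8.07 in the deletion libraries, against 9.27 and 27.5 in the controls, just short of overlapping. H2-Ab1 to Csf1r was 4.66, 4.47 and 13.1, against 7.44 and 19.8, and overlapped. These ratios were chosen after the values were seen and are given with no test.

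**Figure D3:**
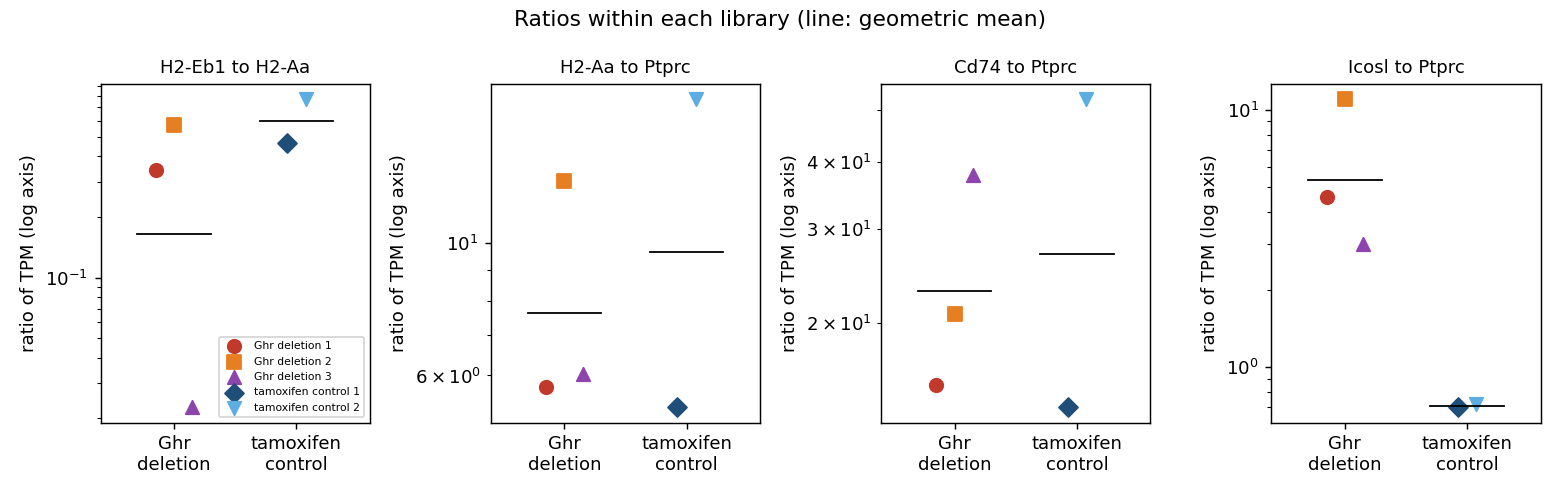
TPM ratios within each library (y axes, logarithmic) for the Ghr deletion and tamoxifen control groups, with 1 point per library and a line at the geometric mean. H2-Aa and Cd74 relative to Ptprc overlap between the groups, H2-Eb1 relative to H2-Aa is 0.0227 in deletion 3, and Icosl relative to Ptprc is 3.01 to 11.0 in the deletion libraries, against 0.700 and 0.719 in the controls.

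In TMM-scaled CPM the classical class I heavy chains overlapped between the groups. On that scale 3 of the 6 class Ib chains were lower without overlap, against 10.2% of all tested genes. With library totals H2-Q7 alone of the heavy chains was lower without overlap, and in TPM none was. H2-K1 (17:33996017-34000347, minus strand), a classical heavy chain, had 164, 347 and 262 CPM in the deletion libraries, against 216 and 536 CPM in the controls. Its log2 fold change was -0.54 ± 0.502 (SE), and 0.25 without control 2. H2-D1 (17:35262730-35267499, plus strand), the other classical chain, had 8547, 11710 and 36764 counts in the deletion libraries, against 8829 and 8498 in the controls. Deletion 3 was highest in CPM as well, at 682 CPM, with every other library at 411 CPM or less, and the log2 fold change was 0.19 ± 0.441 (SE). Without deletion 3 it was -0.26. The TPM ratio of H2-D1 to H2-K1, chosen after the values were seen, was 1.72, 1.04 and 2.75 in the deletion libraries, against 1.65 and 0.781 in the controls, so the ranges overlapped.

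H2-Q7 (17:35439155-35443773, plus strand), a class Ib chain of the Qa-2 antigen, had 4.24, 4.32 and 4.34 CPM in the deletion libraries, against 20.8 and 10.3 CPM in the controls. On this scale the deletion values are nearly identical, and both controls lie well above them. With library totals they were 4.24, 3.64 and 7.00 CPM, against 10.2 and 15.4 CPM. In TPM, H2-Q7 stood at 1.11, 1.13 and 3.35, against 1.67 and 4.97, so the groups overlapped. Its log2 fold change, at -1.86 ± 0.413 (SE), had a 95% interval of -2.84 to -0.87, with an edgeR adjusted p of 0.985 and an unadjusted p of 0.00325, and it was -1.26 without control 1 and -2.28 without control 2. H2-Q6 (17:35424850-35430055), its close relative, had 4.56, 11.4 and 6.63 CPM in the deletion libraries, against 18.5 and 15.2 CPM in the controls, a log2 fold change of -1.16 ± 0.454 (SE). These genes share sequence: 34.9% of the 50-base words of H2-Q7 and 32% of those of H2-Q6 occur in other genes, so how the counting split reads among them is uncertain. H2-M3, which presents formylated bacterial peptides, was low and also did not overlap on the TMM scale, at 1.26, 1.75 and 1.78 CPM, against 2.18 and 2.76 CPM. H2-Q4 had 13.0, 42.4 and 13.4 CPM in the deletion libraries, against 23.9 and 33.3 CPM. H2-T22, a ligand of some gamma delta T cells, and H2-T23 (Qa-1), which NK cells read, had log2 fold changes of -0.38 ± 0.477 and -0.80 ± 0.502 (SE) with overlapping groups. Of their words, 43.9% and 28.8% occur in other genes.

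B2m (2:122147686-122153083, plus strand), the light chain that every class I molecule needs, had the highest TPM of the members in every library. It had 36756, 66265 and 50724 counts in the deletion libraries, against 150625 and 16781 in the controls. The controls held both the highest and the lowest value, at 6444 and 812 CPM, with the deletion libraries between them at 1288, 2075 and 941 CPM. The log2 fold change of -1.34 ± 0.860 (SE; edgeR adjusted p = 0.995) rests on control 1: without that library it was 0.82, and without control 2 it was -2.17. In TPM the range was much narrower, at 1067, 1969 and 2686 in the deletion libraries, against 1576 and 1263 in the controls.

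Among the peptide loading genes, both TAP subunits were lower without overlap in TMM-scaled CPM, against 10.2% of all tested genes. With library totals and in TPM both overlapped, and in TPM deletion 3 was the highest library for both (5.69 for Tap1 and 15.5 for Tap2). Tap1 (17:34187553-34197225, plus strand) had 8.10, 10.6 and 7.67 CPM in the deletion libraries, against 20.7 and 11.9 CPM in the controls, a log2 fold change of -0.89 ± 0.382 (SE). Tap2, its partner, had 7.15, 8.55 and 11.6 CPM, against 24.6 and 14.0 CPM, a log2 fold change of -1.08 ± 0.395 (SE; unadjusted p = 0.0303, edgeR adjusted p = 0.991). Control 1 was the highest library for both subunits, and without it the log2 fold changes were -0.44 for Tap1 and -0.63 for Tap2. Tapbp (tapasin), which holds empty class I molecules at TAP, and Erap1, which trims the peptides, had log2 fold changes of -0.24 ± 0.390 and -0.05 ± 0.464 (SE). Both overlapped between the groups, and both changed sign when counts were scaled by library totals.

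The catalytic subunits of the immunoproteasome, the form of the proteasome that interferon gamma brings in, were lower without overlap in TMM-scaled CPM. The share over all tested genes was 10.2%. With library totals and in TPM, each of these subunits overlapped, with deletion 3 above control 1. Psmb8 (17:34197721-34201454) had 6.13, 9.74 and 16.6 CPM in the deletion libraries, against 20.7 and 22 CPM in the controls. Psmb9 (17:34181987-34187764, minus strand) had 3.82, 1.91 and 4.42 CPM, against 6.42 and 7.07 CPM. Psmb10 had 3.01, 1.35 and 3.92 CPM, against 6.07 and 5.95 CPM. Their log2 fold changes were -0.98 ± 0.454, -0.99 ± 0.491 and -1.12 ± 0.546 (SE), with edgeR adjusted p-values of at least 0.991. The activator subunits Psme1 and Psme2 overlapped, with log2 fold changes of -0.46 ± 0.427 and -0.13 ± 0.263 (SE). Of the words of Psme2, 54.9% are shared with other genes, mostly with its copy Psme2b. Nlrc5 (8:94434356-94527272), the activator of class I genes, had 16.2, 18.0 and 17.1 CPM in the deletion libraries, against 19.5 and 24.5 CPM. This small difference was without overlap on the TMM scale only (log2 fold change -0.36 ± 0.285, SE, and -0.19 without control 2).

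Each immunoproteasome subunit replaces a constitutive partner, so the TPM ratio of the pair within a library is free of scaling between libraries. Psmb10 to Psmb7 was 0.121, 0.0297 and 0.125 in the deletion libraries, against 0.315 and 0.254 in the controls, with no overlap. The mean log2 ratio differed by -1.88 (deletion minus control), with a two-sided exact permutation p of 0.1, the smallest that 3 against 2 libraries allow, and 0.3 after adjustment over the 3 ratios. Psmb9 to Psmb6 was 0.0381, 0.0322 and 0.101, against 0.101 and 0.102, and deletion 3 was level with the controls (exact p = 0.3, adjusted 0.45). Psmb8 to Psmb5 was 0.122, 0.229 and 1.21, against 0.464 and 0.590, and deletion 3 stood above both controls (exact p = 0.7, adjusted 0.7). Psmb5 itself had 7.50 CPM in deletion 3 and 19.5 to 23.4 CPM in the other 4 libraries. None of the 3 ratios passed the test, and none could have with these numbers of mice.

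**Figure D4:**
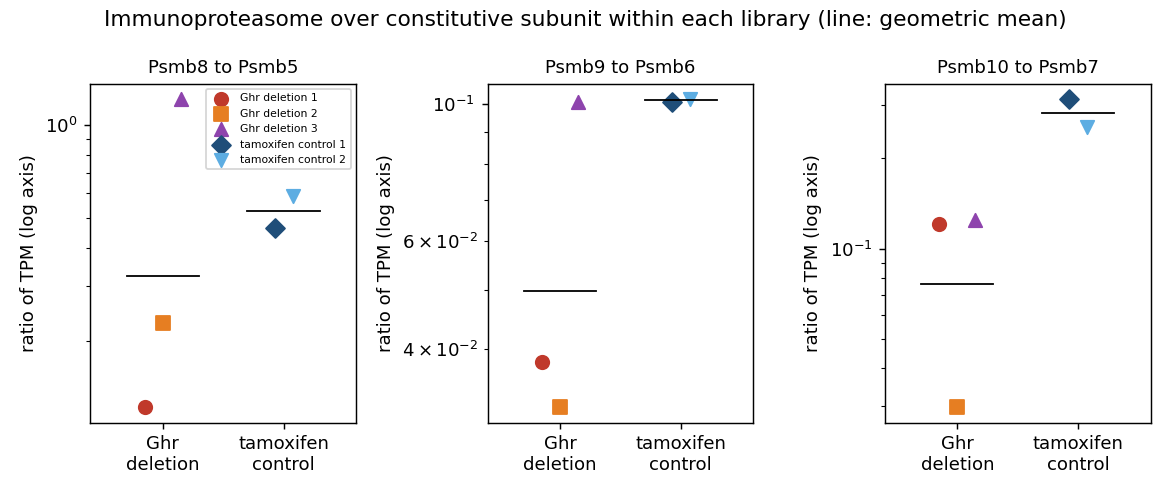
TPM ratio of each immunoproteasome subunit to the constitutive subunit it replaces (y axes, logarithmic), with 1 point per library and a line at the geometric mean of each group. Psmb10 to Psmb7 separates the 3 Ghr deletion libraries from the 2 tamoxifen controls, whereas deletion 3 reaches the control level for Psmb9 to Psmb6 and passes it for Psmb8 to Psmb5.

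Icosl (10:78069302-78083913, plus strand) was the 1 member higher in the deletion libraries without overlap. It encodes the ligand of ICOS on activated T cells and is made by B cells, macrophages and some epithelia. It had 31.5, 33.2 and 26.6 CPM in the deletion libraries, against 11.0 and 13.3 CPM in the controls, which averages 30.5 ± 3.45 CPM (SD, n = 3) and 12.1 ± 1.67 CPM (SD, n = 2). On this TMM scale the groups are tight and far apart, while on the other 2 scales, given below, the controls differ more from each other. Its log2 fold change, at 1.33 ± 0.297 (SE), had a 95% interval of 0.62 to 2.04, with an unadjusted p of 0.00331 and an edgeR adjusted p of 0.985. Leaving out any 1 library gave 1.19 to 1.47, and adjusted p-values over the alternatives ran from 0.0232 with DESeq2 to 1.000. With library totals the values were 31.5, 28.0 and 42.9 CPM, against 5.37 and 19.9 CPM, and in TPM 7.05, 8.49 and 21.7, against 0.770 and 5.61. No 50-base word of its transcripts occurs in another gene. As TPM ratios chosen after the values were seen, with no test, Icosl to Ptprc was 4.58, 11.0 and 3.01 in the deletion libraries, against 0.700 and 0.719 in the controls. Ptprc was itself lower in the deletion libraries, and Cd274 to Ptprc was also higher without overlap, at 0.195, 0.234 and 0.259, against 0.145 and 0.110. Icosl to the epithelial gene Epcam was 0.195, 0.109 and 0.0588, against 0.0636 and 0.0394, and the groups overlapped. The receptor gene Icos was too low to test, with 1, 3 and 7 counts in the deletion libraries and 10 and 26 in the controls.

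**Figure D5:**
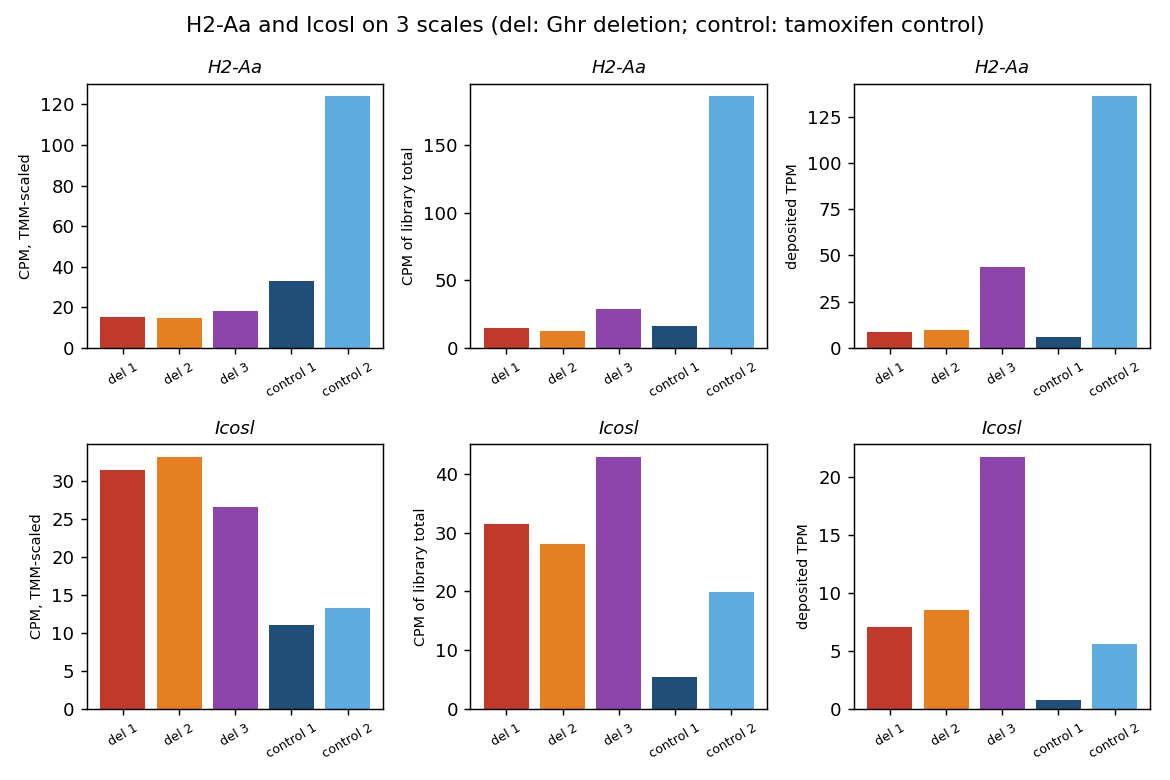
H2-Aa (top) and Icosl (bottom) in each library in TMM-scaled CPM, CPM of the library total and deposited TPM (y axes, bars from 0), with the 3 Ghr deletion libraries left of the 2 tamoxifen controls. Icosl is higher in the deletion libraries on all 3 scales, while control 1 lies below deletion 3 for H2-Aa on the scales that do not use TMM.

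The classical B7 ligands were scarce. Cd86, a ligand of CD28 and CTLA-4, had 1.02, 1.22 and 1.11 CPM in the deletion libraries, against 1.67 and 2.47 CPM in the controls. The groups did not overlap on this TMM scale, but did with library totals and in TPM. The log2 fold change of Cd86 was -0.89 ± 0.518 (SE), and -0.58 without control 2. Relative to Csf1r within a library it was 0.203, 0.325 and 0.187, against 0.238 and 0.279, so it overlapped there. Cd80, the other CD28 ligand, had 1, 0 and 19 counts in the deletion libraries and 8 and 3 in the controls, and was not tested. Cd40, through which T cells license antigen-presenting cells, had 10, 7 and 12 counts, against 10 and 9 counts. Its groups did not overlap in CPM, at 0.219 to 0.350, against 0.428 and 0.436, but at such counts the log2 fold change of -0.71 ± 0.740 (SE) is below its own error. Cd274 (PD-L1; 19:29367455-29388095) had 1.93, 0.971 and 3.42 CPM in the deletion libraries, against 3.38 and 2.95 CPM in the controls, with overlap. Pdcd1lg2 (PD-L2) was barely detected, with 0, 0 and 1 counts in the deletion libraries and 2 and 0 in the controls.

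Other genes of the pathway, none of them members, had medians nearer 0, save the T cell counter-receptors. Over all tested genes, 10.2% were lower without overlap and 9.43% were higher. Of 24 further presentation genes, 21 were tested, and 13 were lower and 8 higher, 4 of the lower ones without overlap, and the median log2 fold change was -0.29. The chaperones among them overlapped: Calr had 477 to 757 CPM in the deletion libraries and 714 and 841 CPM in the controls, and Canx had 560 to 869 CPM, against 467 and 596 CPM. The 5 constitutive proteasome genes had a median of 0.15, with 2 lower, 3 higher and 0 free of overlap. Of 12 other B7 and TNF family ligands, 7 were tested, 3 lower and 4 higher, with a median of 0.16 and 0 free of overlap. Of 12 genes of the interferon gamma pathway, 10 were tested, 6 lower and 4 higher, with a median of -0.28 and 4 lower without overlap. Ifng had 0, 1 and 0 counts, against 2 and 0. Of 12 T cell counter-receptors, 4 were tested, 3 lower and 1 higher, with a median of -1.42. Btla, an inhibitory receptor of B and T cells, had 10, 2 and 14 counts in the deletion libraries, against 53 and 39 counts in the controls, a log2 fold change of -3.19 ± 0.781 (SE). edgeR gave it an adjusted p of 0.985 and DESeq2 one of 0.0232. edgeR called 0 genes on any of these 5 lists.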

How the data were processed

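Libraries came from flash-frozen tissue through a stranded total RNA kit (TruSeq), according to the protocols in the labels. Alignment to GRCm38 with STAR 2.5.3a, quantification with RSEM 1.3.0 and read conversion with bcl2fastq 2.20.422 are taken from the submitters' processing notes. For the authors' annotation release and strand setting, the sources used here give nothing. Gene positions and shared 50-base words come from GENCODE M21. The deposited tables hold expected counts per gene, which RSEM estimates by sharing out reads that match several genes, and the authors' TPM, which is scaled by length and library.

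Expected counts were rounded. Genes passing filterByExpr (18615) were fitted with edgeR 4.0.16 (R 4.3.3; TMM, robust quasi-likelihood, group as the only term, common biological coefficient of variation 0.52), and p-values were adjusted over all genes by the Benjamini-Hochberg method. Calls needed an adjusted p under 0.05. DESeq2 1.42.0 and limma-voom (limma 3.58.1), other scalings, no filter, a replicate block and left-out libraries were alternatives. Ratios used TPM. Of the gene IDs, 99.5% had a symbol in the reference tables. A count of 3, the limit that a count of 0 allows, equals 0.0557 to 0.145 CPM and covers counting error only. The labels name the mice as biological replicates.

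The 34 members and the lists were chosen with earlier results of these data known. The rule was to describe every member, up to 4 genes of highest mean CPM of each other list, and the sums of each marker list with its defining markers at or near 0. Genes named outside it were Btla, Cr2, Upk3a, Ifng, Icos, Ptprc, Csf1r, Psmb5, Cd52, Svs1 and Svs2. These genes and the ratios to Ptprc, Csf1r, Epcam, H2-Aa and H2-K1 were chosen after their values were seen.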

Additional observations from a re-analysis of the deposited data

How the results depend on the processing

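The counts of genes called were 0 with TMM, with DESeq2's size factors in edgeR, with TMM computed without the 50 largest genes and without the filter, 46 with library totals, 164 with DESeq2 and 8 with the replicate block. They ran from 0 to 48 when 1 library was left out, with 2 without deletion 3 and 48 without control 2, and reached 85 without control 1 and deletion 3 together, which leaves 2 deletion mice against 1 control. Members called were 1 with library totals (H2-Eb1), 3 with DESeq2, 4 without those 2 libraries (H2-Aa, H2-Ab1, H2-Eb1 and Cd74) and 0 to 0 with any 1 library left out. There the lone control is assumed to vary like the deletion group. Members lower without overlap numbered 2 with library totals, 0 in TPM, 27 without control 1 and deletion 3 (against 35.0% of all genes) and 17 to 24 with 1 library left out (against 14.3% to 28.4%). Members higher without overlap numbered 2 without both libraries (against 32.8% of all genes) and 1 to 2 with 1 left out (against 15.9% to 27.7%). Medians of log2 fold change with 1 library left out ran from -0.82 to -0.44 for class I, -2.57 to -1.07 for class II and -0.75 to -0.42 for the co-stimulatory genes. The class II median was -3.24 without both libraries, and the co-stimulatory median -0.31 with library totals. Log2 differences of the ratios with 1 library left out ran from -1.65 to 0.01 for Psmb8 to Psmb5, where leaving out deletion 1 turned the sign, from -1.53 to -0.71 for Psmb9 to Psmb6 and from -2.24 to -1.20 for Psmb10 to Psmb7. The causes were not tested. Among single members, none of them called, B2m turned to 0.82 without control 1 and 1.05 without both libraries, H2-K1 to 0.25 without control 2, and H2-D1 to -0.26 without deletion 3, -0.31 without both and -0.25 with the block. Tapbp, Erap1 and Psme2 also changed sign under some settings. Same-numbered mice deviated from their group means with correlations of 0.131 for number 1 and -0.136 for number 2. With 2 controls, the control deviations are equal and opposite, so these values cannot show whether the numbers pair the mice. With the replicate block the class medians were -0.72, -2.34 and -0.74 and no member was called. Low depth limits H2-Oa, H2-Ob, Cd40, Cd80 and Pdcd1lg2.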
